A study of Mus musculus with 6 samples.

Results

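The natriuretic peptide genes Nppa and Nppb, the transcription factor genes Nkx2-5, Hand1, Hand2 and Irx4, and the muscle genes Mybpc3 and Pln are largely confined to the heart among striated muscles. These 8 heart-restricted genes were taken by name from the array, where they had 11 probes, out of 37001 gene names. They were followed in 6 teratomas, 3 injected with a mimic of miR-124a-3p and 3 injected with a microRNA negative control. Teratomas hold tissues of many kinds; these grew from mouse embryonic stem cells under the skin of BALB/c nude mice, which lack the T cells to reject them. Both groups received their microRNA into the tumour as complexes with the carrier Atelogen QG, 15 µg in 100 µL once every 3 days until day 28, and the first dose followed the cells by about 10 days. Mice were allotted at random, 3 to a group, and every array holds the tumour of a different mouse. Each tumour was cut into 2 pieces, 1 of which gave the RNA, and the amount of mimic in the tumours was not analysed here. miR-124 is made mainly in neurons.

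Heart muscle and skeletal muscle share most of the contractile machinery, and embryonic skeletal fibres make several proteins named for the heart, such as cardiac actin and cardiac troponin T. A smaller set of genes tells heart from skeletal muscle. Nkx2-5, Hand1, Hand2 and Irx4 encode transcription factors that pattern the embryonic heart, Nppa and Nppb encode hormones released by heart muscle cells, Mybpc3 encodes the heart form of the myosin binding protein of the thick filament, and Pln encodes phospholamban, the inhibitor of the calcium pump of the sarcoplasmic reticulum. Several of them have duties elsewhere. Hand1 is needed in the trophoblast giant cells of the placenta, and Hand2 in sympathetic neurons and limb buds.

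Signal is given as relative intensity, the background-corrected spot intensity as a percentage of the 75th percentile of the same array, and it is compared only between tumours for the same probe. That percentile lay between 278.6 and 315.2, and 63.4% to 65.9% of probes per array were well above background. The 6 arrays lay on 1 slide and were scanned once, with miR-124a tumours in row 2 and control tumours in row 1, so treatment and slide row cannot be told apart. In tumours of mixed tissue, fewer cells of a type and less RNA per cell cannot be told apart either. To be tested, a gene needed a probe well above background in all 3 tumours of a group. Of the 8 heart-restricted genes 5 were tested (Nppa, Nkx2-5, Hand2, Mybpc3 and Irx4) and 3 were too dim (Nppb, Hand1 and Pln). None of the 5 passed an adjusted p of 0.05 in limma, and 1 of them, Nkx2-5, had an unadjusted p under 0.05. Over all 22946 genes tested, 3.23% passed the adjusted threshold, 2.75% lower and 0.488% higher with miR-124a, and 27.3% had an unadjusted p under 0.05. The median log2 fold change of the 5 genes was -0.10, against -0.00 over all genes tested.

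**Figure D1:**
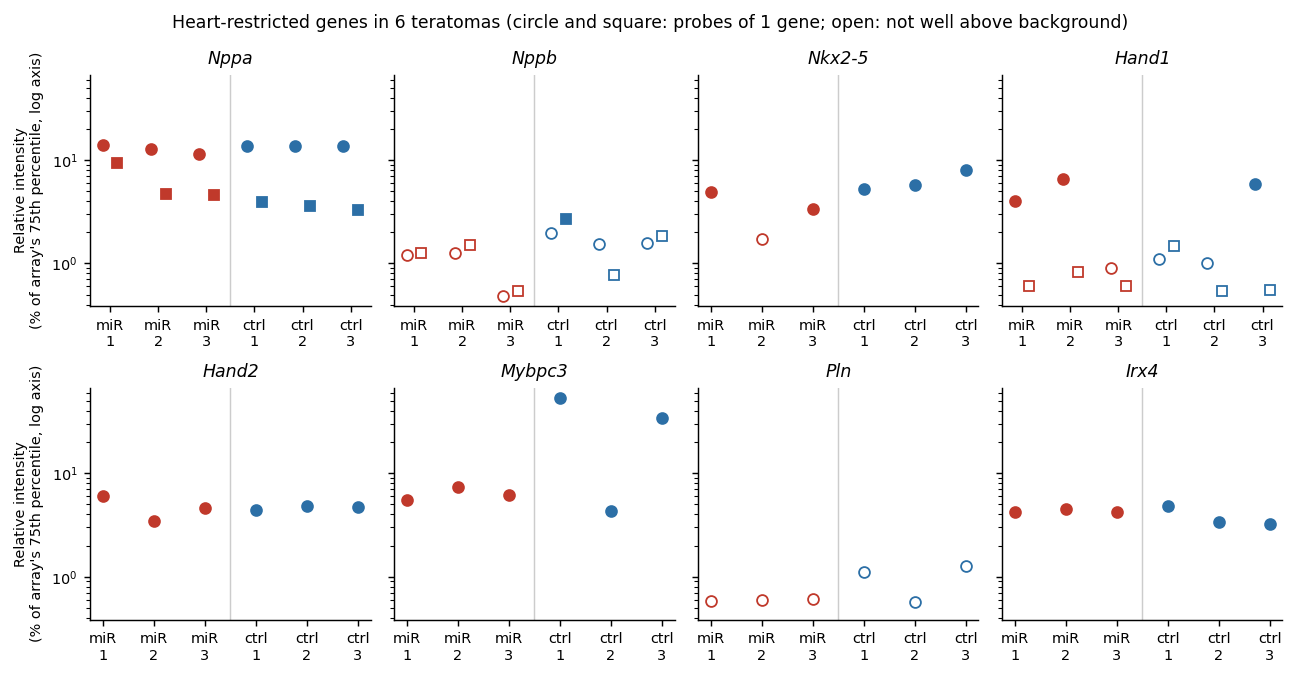
Relative intensity of every probe of the 8 heart-restricted genes, in percent of the 75th percentile of each array on a log axis, with the 3 miR-124a tumours (red) left of the 3 control tumours (blue). Circles and squares are different probes of a gene and open symbols are not well above background. Mybpc3 stood at 53.1% and 34.0% in control 1 and control 3 and between 4.34% and 7.34% in the other 4 tumours, while the brighter Nppa probe stayed between 11.5% and 14.0% and the dimmer one was higher in every miR-124a tumour than in any control.

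Mybpc3 was the heart-restricted gene that varied most among control tumours. Its probe (mm9, chromosome 2, 90976577 to 90976636) read 5.54%, 7.34% and 6.18% in miR-124a 1 to 3, against 53.1%, 4.34% and 34.0% in control 1 to 3. Control 1 and control 3 were high, and control 2 lay below every miR-124a tumour, so the groups overlapped. On the log2 scale the means were -3.99 ± 0.20 with miR-124a and -2.33 ± 1.93 in controls (SD, n = 3 each). The log2 fold change was -1.65 ± 0.90 (SE, limma), with a 95% interval of -3.82 to 0.51 and an adjusted p of 0.279. Without control 2 it was -2.75 (limma, adjusted p = 0.0589), without control 1 -0.94 (adjusted p = 0.505) and without control 3 -1.27 (adjusted p = 0.463).

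Other genes of heart muscle were high in the same controls. From a list of 10 heart markers, Myh6, Myl7 and Tnni3 are named here because of their values. Myh6 encodes the alpha myosin heavy chain of the heart, Myl7 the atrial regulatory light chain and Tnni3 cardiac troponin I. Myh6 read 63.0%, 33.8% and 68.1% in miR-124a 1 to 3, against 529.6%, 42.6% and 551.8% in control 1 to 3. Myl7 read 21.1%, 7.87% and 31.4% in the miR-124a tumours, against 368.1%, 19.0% and 303.9% in the control tumours. Tnni3 read 14.4%, 9.48% and 15.2% with miR-124a, against 37.3%, 13.5% and 44.1% in controls. All 3 genes were well above background on all 6 arrays. For each of them control 1 and control 3 were the highest tumours and control 2 lay within the range of the miR-124a tumours. Over control 2, the other controls were 12.4 to 13.0 times as high for Myh6, 16.0 to 19.3 times for Myl7, 2.77 to 3.28 times for Tnni3 and 7.83 to 12.2 times for Mybpc3. The log2 fold changes were -2.14 ± 1.01 for Myh6, -2.89 ± 1.20 for Myl7 and -1.14 ± 0.47 for Tnni3 (SE, limma), with adjusted p of 0.226, 0.184 and 0.181. Without control 2, the lowest control for each, they were -3.36, -4.27 and -1.67 (limma, adjusted p of 0.0589, 0.0696 and 0.0706). The 3 genes were named for values that were low in control 2, so larger folds without it follow from that choice. In that fit 0 of all 22946 genes passed, and Actc1, a shared muscle gene, also had an adjusted p of 0.0589 (limma). Fits without control 1 or control 3 are not given for these 3 genes. Over the 6 arrays log2 values of Mybpc3 correlated with those of Myh6 at r = 0.950 and with those of Myl7 at 0.919, which placed them at ranks 18 and 47 of 22945 genes. These correlations are a description of 6 tumours that also share their treatment groups. The gene most like Mybpc3 by this measure was Zfp131, a zinc finger gene, at r = 0.984.

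The rest of the heart marker list had other patterns. Of 10 markers 9 were tested, 0 passed in limma and 5 had an unadjusted p under 0.05, with a median log2 fold change of -0.45. Bmp10, a growth factor of the atria, was not well above background on any array. Those with the smallest p included Tnni3k, a heart kinase, Nebl, a protein of the Z disc, and Ryr2, the calcium release channel of heart. Nebl and Ryr2 had higher values with miR-124a, at log2 fold changes of 0.72 ± 0.23 and 0.75 ± 0.27 (limma, adjusted p = 0.115 and 0.147). Tnni3k was well above background on 3 control arrays and on 0 miR-124a arrays, and was at least 1.63-fold lower with miR-124a (limma, adjusted p = 0.0800). It entered the test through the controls alone, so its p rests on miR-124a values at background. Control 2 was the lowest control for 5 of the 9 tested markers, Nebl and Ryr2 among them. The summed relative intensity of the list was 307% to 555% in miR-124a tumours, and 1236%, 369% and 1314% in control 1 to 3. Myh6 and Myl7, named above because of their values, contributed 529.6% and 368.1% in control 1, and 551.8% and 303.9% in control 3. The sum therefore does not describe the other markers.

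Most genes that heart and skeletal muscle share behaved otherwise. Of 38 shared striated muscle genes 25 fell with miR-124a and none rose (limma, adjusted p under 0.05), with a median log2 fold change of -1.53. Of the 13 others, Myh7, Fabp3 and Atp2a2 are named because of their values, at log2 fold changes of -0.03, -0.03 and 0.03. Their adjusted p was 0.926, 0.931 and 0.934 (limma). Myh7 encodes the beta myosin heavy chain of heart and slow muscle. Of 13 tested skeletal muscle genes 12 fell and none rose, with a median of -1.64. Actc1, cardiac alpha actin, read 887%, 981% and 914% in miR-124a tumours, against 2322%, 2838% and 2169% in controls, and fell by 1.39 ± 0.13 on the log2 scale (limma, adjusted p = 0.0182). Myog, the factor that starts the terminal differentiation of skeletal muscle, read 422%, 419% and 540.0% with miR-124a, against 1292%, 1593% and 1430.2% in controls, and fell by 1.65 ± 0.14 (adjusted p = 0.0170). For both genes all 3 miR-124a tumours lay below all 3 controls, and control 2 was the highest tumour. Control 2 was the highest of the controls for 31 of the 38 shared genes and for 12 of the 13 skeletal genes, and the lowest for 1 and 0. Over all genes tested, control 2 was the highest control for 36.2% and the lowest for 30.9%. The single shared gene with control 2 as the lowest control was Myl2, the ventricular and slow-fibre light chain, at 16.6%, 7.80% and 21.3% with miR-124a, against 83.5%, 30.4% and 55.8% in controls (log2 fold change -1.89 ± 0.49, limma, adjusted p = 0.0829).

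The groups of the shared and skeletal lists did not overlap for 34 of 38 and 13 of 13 genes, all lower with miR-124a, where 20.6% of all genes tested were lower without overlap. The counts of calls were less stable, as they were over all genes tested. Without any 1 of control 1, control 2, miR-124a 1 and miR-124a 2 none of the 38 shared genes passed (limma), although 34 or 35 of them had an unadjusted p under 0.05. Over all 22946 genes tested, 13, 0, 1 and 0 passed in those 4 fits. Without control 3 the shared count was 13 and without miR-124a 3 it was 27, where 353 and 375 of all genes passed. No skeletal gene passed in those 4 fits either, with all 13 at an unadjusted p under 0.05 in each.

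**Figure D2:**
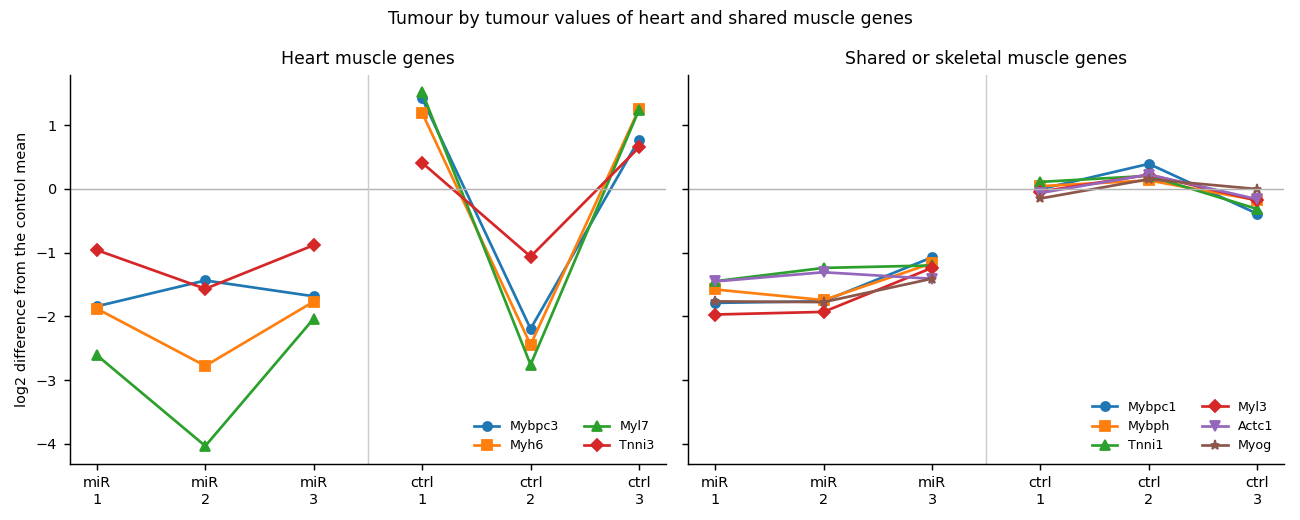
Log2 difference of each tumour from the mean of the 3 control tumours, for 4 heart muscle genes (left) and 6 shared or skeletal muscle genes (right), with miR-124a tumours before control tumours in each panel. Lines join the values of a gene and carry no order. Mybpc3, Myh6, Myl7 and Tnni3 were low in control 2, where the shared and skeletal genes were at their highest.

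The myosin binding protein family shows both patterns within a set of related genes. Mybpc1, the slow skeletal form, read 679.7%, 692% and 1115% in miR-124a tumours, against 2341%, 3081% and 1791% in control tumours, and fell by 1.54 ± 0.27 on the log2 scale (limma, adjusted p = 0.0428). Mybph, a shorter relative, read 260.0%, 232% and 346% with miR-124a, against 799.6%, 851% and 686% in controls, and fell by 1.50 ± 0.17 (adjusted p = 0.0211). Mybpc2, the fast skeletal form, did not pass, at a log2 fold change of -1.65 ± 0.50 (limma, adjusted p = 0.109), and Mybphl was not well above background on any array. Mybpc1, Mybpc2 and Mybph all had control 2 as the highest tumour, whereas Mybpc3 had control 2 as the lowest. Without any 1 of control 1, control 2, miR-124a 1 and miR-124a 2 none of the 3 passed, and each had an unadjusted p under 0.05. At most 13 of all 22946 genes passed in those fits. Without control 3, 1 of the 3 passed.

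The 250 bases before the annotated start of Mybpc3, Myh6 and Myl7 are shown because these genes were high in the same tumours. The sequences are from RefSeq, build GRCm38.p6, written 5′ to 3′ on the strand of the gene. Mybpc3 lies on the plus strand at chr2:91117894-91118143, Myh6 on the minus strand at chr14:54966608-54966857 and Myl7 on the minus strand at chr11:5898783-5899032. Capitals mark GATA on either strand, the motif of the GATA factors, the MEF2 box on either strand and the CArG box, which binds serum response factor.
Mybpc3: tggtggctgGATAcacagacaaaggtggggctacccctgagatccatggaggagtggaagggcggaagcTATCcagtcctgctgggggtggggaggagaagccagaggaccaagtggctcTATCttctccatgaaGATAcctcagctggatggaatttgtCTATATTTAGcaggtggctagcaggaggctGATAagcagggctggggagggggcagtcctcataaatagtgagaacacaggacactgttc
Myh6: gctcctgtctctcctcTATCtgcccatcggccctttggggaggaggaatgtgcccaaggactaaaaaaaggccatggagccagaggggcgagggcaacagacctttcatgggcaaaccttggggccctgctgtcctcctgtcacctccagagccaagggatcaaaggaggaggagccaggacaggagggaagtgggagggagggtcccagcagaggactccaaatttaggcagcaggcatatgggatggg
Myl7: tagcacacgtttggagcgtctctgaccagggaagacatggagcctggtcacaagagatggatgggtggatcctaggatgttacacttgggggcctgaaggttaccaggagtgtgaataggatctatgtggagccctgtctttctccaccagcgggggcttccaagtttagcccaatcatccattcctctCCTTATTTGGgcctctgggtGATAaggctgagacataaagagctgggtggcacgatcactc

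Mybpc3 had 5 matches to GATA, 1 MEF2 box beginning 90 bases before the start and 3 matches to the E-box CANNTG, the motif of basic helix-loop-helix factors such as Hand1 and Hand2, which is not in capitals. Myh6 and Myl7 had 1 match to GATA each, and Myl7 also had 1 CArG box. The window of Tnni3, also high in control 1 and control 3, is not shown. It had 0 matches to GATA, 0 to the MEF2 box, 0 to the CArG box and 1 to the E-box. Of the 8 heart-restricted genes 7 had a window in the table, all but Hand1, and 6 of these held GATA, 6 an E-box, 1 a MEF2 box and 0 a CArG box. Over all 32851 windows, 53.6% held GATA, 66.2% an E-box, 2.92% a MEF2 box and 1.47% a CArG box. The matches are letters in a window, and the arrays do not measure binding.

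Pln was at background in these tumours. Its probe (chromosome 10, 53064944 to 53065003) read 0.588%, 0.590% and 0.603% with miR-124a, against 1.10%, 0.568% and 1.26% in controls, and was well above background on 0 of 6 arrays. No fold is therefore given. The pumps that phospholamban acts on, and the related regulators, were measured. Atp2a2, the pump of heart and slow muscle that many other cells also make, read 370.1%, 536% and 508% in miR-124a tumours, against 540.3%, 427% and 412% in controls, a log2 fold change of 0.03 ± 0.18 (limma, adjusted p = 0.934). Atp2a1, the pump of fast skeletal muscle, read 65.0%, 78.4% and 114% with miR-124a, against 273%, 439% and 227% in controls, and fell by 1.85 ± 0.30 (adjusted p = 0.0376). The groups overlapped for Atp2a2 and did not for Atp2a1. Hrc, a calcium-binding protein of the reticulum, fell by 1.79 ± 0.19 (limma, adjusted p = 0.0210), Sln, the sarcolipin inhibitor of the pump, had -1.13 ± 0.34 (adjusted p = 0.105), and Atp2a3 had -0.45 ± 0.25 (adjusted p = 0.291). Of these 5 genes 2 thus fell, where 2.75% of all genes tested fell. Atp2a2, Hrc and Sln are also counted among the shared striated muscle genes. None of the 5 passed without any 1 of control 1, control 2, miR-124a 1 and miR-124a 2, with 3 or 4 at an unadjusted p under 0.05. At most 13 of all 22946 genes passed in those fits, with 4103 to 6117 at an unadjusted p under 0.05. Without control 3, 1 of the 5 passed, and 353 of all genes.

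The 2 natriuretic peptide genes lie next to each other on chromosome 4 and were measured by 2 probes each. The brighter Nppa probe (147376024 to 147376083) read 14.0%, 12.7% and 11.5% in miR-124a tumours, against 13.6%, 13.7% and 13.6% in controls. The groups overlapped, the 3 controls were almost level, and the log2 fold change was -0.10 ± 0.10 (limma, 95% interval -0.35 to 0.14, adjusted p = 0.549). The dimmer Nppa probe (147375892 to 147375951) read 9.47%, 4.73% and 4.63% with miR-124a, against 3.89%, 3.57% and 3.32% in controls. Here every miR-124a tumour was above every control, as for 15.0% of all genes tested, with miR-124a 1 furthest out. In a fit over all 35719 probes, of which 2.78% passed, its log2 fold change was 0.72 ± 0.28 and did not pass (limma, adjusted p = 0.173). The probes thus disagreed in sign, and their mean gave 0.31 (adjusted p = 0.319). Neither Nppa probe was high in control 1 and control 3, as Mybpc3 and Myh6 were, and the brighter probe correlated with Myh6 at r = 0.294 over the 6 arrays. The genes most like that probe were Cct3, a chaperonin subunit, at r = 0.992 and Nanos3, a germ cell gene, at 0.985.

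Nppb was at or near background. The probe at 147360489 to 147360548 read 1.20%, 1.27% and 0.486% with miR-124a, against 1.98%, 1.53% and 1.59% in controls, and was well above background on 0 arrays. The probe at 147361247 to 147361306 read 1.26%, 1.51% and 0.542% with miR-124a, against 2.68%, 0.767% and 1.83% in controls, and was well above background in control 1 alone. The first of these probes is shown as the sequence behind a value at background.
Nppb probe: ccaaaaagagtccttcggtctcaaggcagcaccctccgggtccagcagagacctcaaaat

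The enzymes and receptors of the natriuretic peptides did not pass in either direction (0 of 7 tested, limma; 1 at an unadjusted p under 0.05), with a median log2 fold change of 0.03. Npr3, the clearance receptor, read 38.4%, 50.01% and 45.4% in miR-124a tumours, against 32.7%, 31.4% and 27.4% in controls, without overlap (0.54 ± 0.13, limma, adjusted p = 0.0761). Corin, the protease that activates the Nppa product, varied widely in both groups, at 254%, 51.1% and 169.8% with miR-124a and 53.6%, 57.2% and 216% in controls (0.58 ± 0.76, adjusted p = 0.653). The log2 fold changes were -0.29 ± 0.25 for the related peptide gene Nppc, 0.03 ± 0.10 for its receptor Npr2, -0.08 ± 0.09 for the protease Furin, 0.26 ± 0.11 for the peptide-degrading enzyme Mme and -0.20 ± 0.10 for the cyclic GMP kinase Prkg1 (limma, adjusted p of 0.474, 0.870, 0.601, 0.196 and 0.241). Npr1, the receptor of the Nppa and Nppb products, was not well above background on any array.

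Among the transcription factors, Nkx2-5 was the member whose groups did not overlap. Its probe (chromosome 17, 26975621 to 26975680) read 4.90%, 1.73% and 3.35% in miR-124a tumours, against 5.29%, 5.77% and 7.93% in controls. All 3 miR-124a tumours were lower, the nearest by little, and miR-124a 2 was not well above background. The log2 fold change was -1.03 ± 0.39 (limma, unadjusted p = 0.0352, adjusted p = 0.154), -0.18 with normexp background correction and -0.62 without miR-124a 2. Nkx2-5 entered the test through the controls alone, where it is higher, and its fold includes the miR-124a 2 value at background. With detection required on all 6 arrays it was not tested, and 0 of the other 4 members passed or had an unadjusted p under 0.05 (limma). Of 5 heart-restricted genes tested, 1 had groups that did not overlap and was lower, where 35.6% of all genes did not overlap and 20.6% were lower without overlap. Nkx2-5 did not follow the order of Mybpc3, since control 2 lay between the other controls.

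Irx4, a factor of the ventricles, had similar values throughout. Its probe (chromosome 13, 73406712 to 73406771) read 4.20%, 4.50% and 4.19% with miR-124a, against 4.78%, 3.35% and 3.26% in controls. Control 1 was the highest and the other controls the lowest, so the groups overlapped, and the log2 fold change was 0.20 ± 0.16 (limma, 95% interval -0.20 to 0.60, adjusted p = 0.462). The genes most like it over the 6 arrays were Picalm, of clathrin-mediated uptake, at r = 0.991 and Plcb1, a phospholipase, at 0.989. None of 10 tested relatives of Irx4 and Nkx2-5 passed (limma; 1 at an unadjusted p under 0.05), with a median log2 fold change of -0.15. That relative was Irx3, at -0.74 ± 0.14 (adjusted p = 0.0509), next to the threshold. The list had 1 call under quantile scaling, under normexp correction, under trend and robust estimation and with detection required on all 6 arrays.

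Hand2 overlapped between the groups, and none of its dimer partners passed. The Hand2 probe (chromosome 8, 59801251 to 59802610) holds 60 bases that span 1360 bases of the genome, so its bases lie in separate stretches, as across a junction of exons.
Hand2 probe: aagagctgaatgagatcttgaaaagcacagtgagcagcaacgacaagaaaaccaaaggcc
It read 5.97%, 3.46% and 4.58% in miR-124a tumours, against 4.43%, 4.80% and 4.73% in controls. The controls lay inside the range of the miR-124a tumours, and the log2 fold change was -0.03 ± 0.20 (limma, 95% interval -0.51 to 0.45, adjusted p = 0.935). It turned to 0.026 with normexp background correction and to 0.17 without miR-124a 2. Hand proteins bind DNA in pairs with E proteins (Tcf3, Tcf4 and Tcf12) and can pair with Twist1 and Twist2, and none of these 5 genes passed (limma; 0 at an unadjusted p under 0.05, or 2 with normexp background correction). Twist2 was higher in every miR-124a tumour than in any control, and the other partners overlapped. Their log2 fold changes were -0.14 ± 0.16, 0.01 ± 0.10, -0.24 ± 0.18, 0.17 ± 0.20 and 0.36 ± 0.15 (adjusted p of 0.590, 0.966, 0.432, 0.610 and 0.188). Of 8 markers of sympathetic neurons, where Hand2 is also used, 0 passed (limma; 3 at an unadjusted p under 0.05), with a median of 0.57. The gene most like Hand2 over the 6 arrays was Sprtn, a DNA repair protease, at r = 0.987.

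Hand1 was detected in 3 tumours, across both groups. The probe at 57642342 to 57642401 on chromosome 11 read 4.04%, 6.49% and 0.906% in miR-124a 1 to 3, against 1.09%, 1.02% and 5.88% in control 1 to 3. It was well above background in miR-124a 1, miR-124a 2 and control 3 alone, and the other probe (57646257 to 57646316) was so on 0 arrays. Hand1 was high in control 3 and low in control 1, where Mybpc3 and Myh6 were high in both. Of 7 tested trophoblast genes 4 had these 3 tumours as their highest, against 5.60% of all genes tested, and Gcm1, Ascl2 and Elf5 did not. From the 4, Prl3d1, Prl3b1 and Tpbpa are named because of their values. Prl3d1, a placental lactogen, read 89.9%, 310.0% and 3.52% with miR-124a, against 20.9%, 4.17% and 137% in controls. Prl3b1, a second placental lactogen, read 62.7%, 104% and 1.24% with miR-124a, against 8.85%, 9.11% and 60.7% in controls. Tpbpa, of the spongiotrophoblast, read 19.9%, 19.2% and 8.86% with miR-124a, against 5.74%, 3.93% and 13.1% in controls. Prl genes form a large family of similar sequences, so a probe may read more than its named gene. None of 7 tested trophoblast genes passed between the groups (limma; 2 at an unadjusted p under 0.05), with a median log2 fold change of 0.42, or 0.12 without control 2; with normexp background correction 1 passed.

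**Figure D3:**
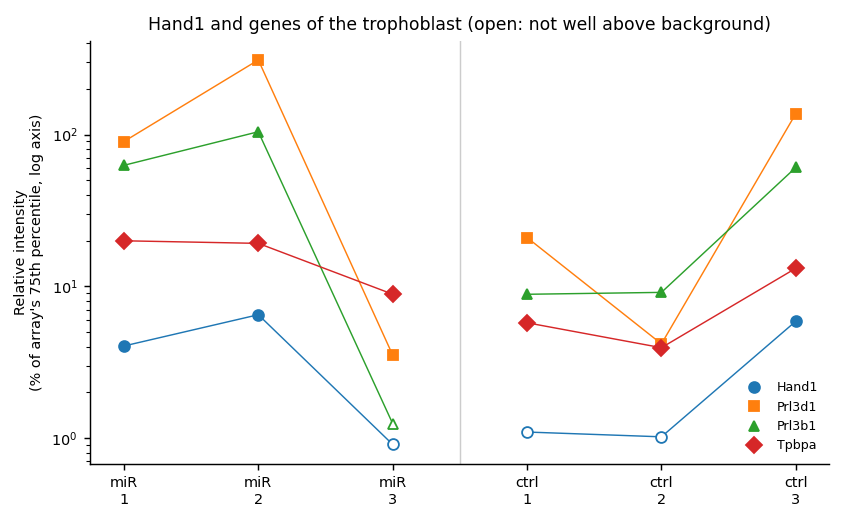
Relative intensity of Hand1 and of the trophoblast genes Prl3d1, Prl3b1 and Tpbpa, in percent of the 75th percentile of each array on a log axis, with miR-124a tumours left of control tumours. Open symbols are not well above background, thin lines join the values of a gene, and heights of different genes are not comparable. All 4 genes were highest in miR-124a 1, miR-124a 2 and control 3.

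Other regulators of heart development were mixed. Of 16 genes of cardiac transcription factors and related regulators 13 were tested, 4 fell with miR-124a and none rose (limma), with a median log2 fold change of -0.61. The 4 were Isl1, a factor of the second heart field that is also made in motor and sensory neurons (-1.06 ± 0.17, adjusted p = 0.0350), Tbx3, of the conduction system and many other tissues (-1.14 ± 0.18, adjusted p = 0.0362), Mef2c (-0.80 ± 0.14, adjusted p = 0.0406) and Smyd1 (-0.92 ± 0.14, adjusted p = 0.0342). Mef2c and Smyd1 are made in skeletal muscle as well as in heart. Gata4, Tbx5 and Tbx20, which act beside Nkx2-5 in the early heart, are added because of their values. Gata4 read 3.01%, 2.98% and 0.938% with miR-124a, on 0 arrays well above background, against 7.89%, 5.52% and 6.22% in controls, on all 3 above it, and was at least 2.37-fold lower (limma, adjusted p = 0.0949). It too entered the test through the controls alone. Tbx5 read 4.53%, 1.56% and 1.04% with miR-124a, against 6.07%, 2.22% and 5.57% in controls, and was well above background in miR-124a 1, control 1 and control 3. Tbx20 was well above background in control 1 and control 3 alone, the controls in which Mybpc3 was high. Among the 13 tested genes of this list, however, control 2 was the highest control for 6 and the lowest for 2. Over all genes tested, control 2 was the highest control for 36.2% and the lowest for 30.9%. Without control 1, control 2 or any miR-124a tumour 0 of the 13 passed (limma, with 5 or 6 at an unadjusted p under 0.05). Without control 3 the count was 2. Over all 22946 genes tested, 13 passed without control 1, 0 without control 2 and 353 without control 3. Without miR-124a 1 to 3, 1, 0 and 375 of them passed.

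Markers of other tissues that could carry these genes were counted too. Of 4 tested epicardium genes 0 passed (limma; 0 at an unadjusted p under 0.05), with a median log2 fold change of -0.05. Of 6 neuron genes 0 passed (4 at an unadjusted p under 0.05), all with higher values with miR-124a and a median of 0.44. That count depended on the setting, with 2 passing under quantile scaling, 3 under normexp correction, 3 under trend and robust estimation and 1 with detection required on all 6 arrays. Of 4 genes of stomach and spleen mesenchyme, where Nkx2-5 also acts, Nkx2-3 was tested and did not pass (-0.55 ± 0.53, limma, adjusted p = 0.534), and Barx1, Nkx3-2 and Tlx1 were too dim. In the smooth muscle list 3 of 7 tested genes fell and none rose, with a median of -0.70. They were Acta2, Smtn and Actg2, genes of the contractile apparatus, at -1.14 ± 0.11, -1.27 ± 0.16 and -0.95 ± 0.11 (limma, adjusted p of 0.0194, 0.0225 and 0.0211). None of them passed without any 1 of control 1, control 2, miR-124a 1 and miR-124a 2, with 3 of the 7 at an unadjusted p under 0.05 in each. At most 13 of all 22946 genes passed in those fits. The summed relative intensity was 33854% to 50086% in miR-124a tumours and 85063% to 131600% in controls for the skeletal list, and 2739% to 3070% in miR-124a tumours and 4971% to 5956% in controls for the smooth muscle list. The part of any of these tissues in the values of the heart-restricted genes was not tested.

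**Figure D4:**
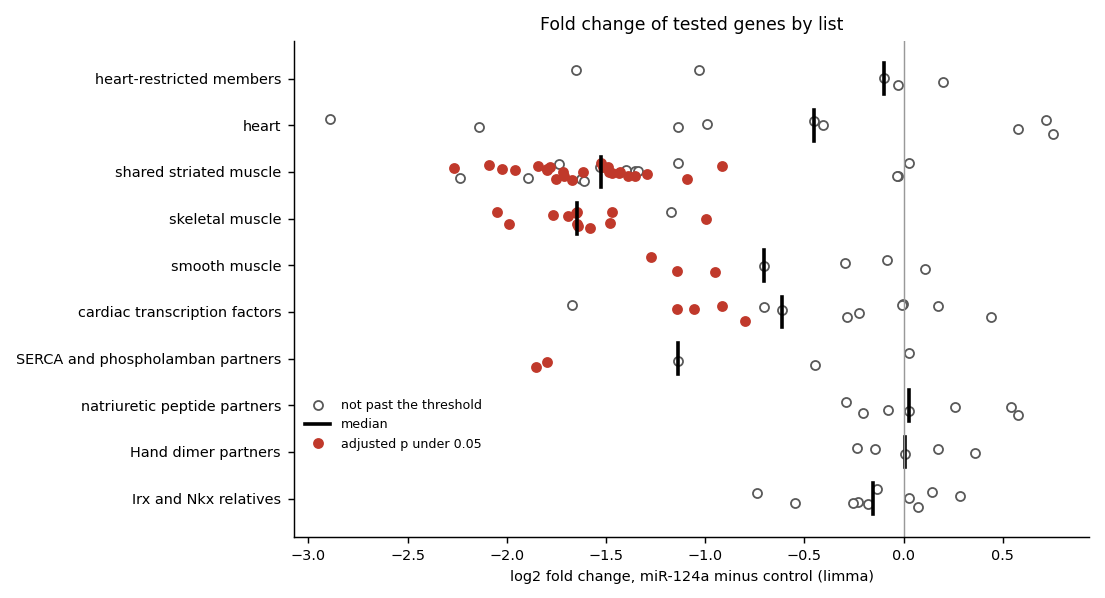
Log2 fold change, miR-124a minus control, of every tested gene of 10 lists; filled points passed an adjusted p of 0.05 in limma and black bars are list medians. The 5 heart-restricted genes had a median of -0.10 with 0 filled points, and the 38 shared striated muscle genes a median of -1.53 with 25.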

How the data were processed

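Gene expression was measured on 1-colour Agilent arrays labelled with Cy3. The deposited spot intensity had been corrected for background by Agilent Feature Extraction 11.5.1.1, per the file headers, and was not scaled between arrays. The authors' deposited table holds log2 values that equal log2 intensity shifted by a constant per array (SD of the difference 0.0029). It was used as an alternative. Per array, log2 intensity minus the 75th percentile over spots that are not controls was taken, spots of a probe were averaged, and 56583 of 56605 probes were kept (the rest were outlier-flagged). Probe positions are build mm9; exon or UTR was not assigned. Of the names, 32979 came from the accession, 10223 from the symbol and 520 from an older symbol; 12861 are the file's. A gene was its brightest tested probe. A fold against a group not well above background is a lower bound, against the lowest signal well above background or the probe's own, whichever is higher. The test was limma 3.58.1 (R 4.3.3), two-sided, on all 6 arrays, with Benjamini-Hochberg adjustment over 22946 genes, and the script was tested on simulated data. The number of arrays limits the precision.

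The heart-restricted genes and the lists were chosen with earlier results of these data known. Named genes are the 8 members, per list up to 4 tested genes with the smallest p, any past the threshold and listed partners, and the 3 genes most correlated with a member, leaving out names that are no symbols; genes outside this rule are said to be named because of their values, and 1 gene that the rule names is not reported here. Replicate numbers gave no sign of pairing, since same-numbered tumours deviated from their group means with correlations of -0.16, -0.04 and -0.06. Tumours of unlike number gave -0.21 to 0.34. With 3 tumours to a group these values cannot settle whether the numbers pair tumours. Alternatives were the authors' table, quantile scaling, normexp correction (offset 50, then quantile scaling), no filter, detection in all 6 tumours, averaging the probes of a gene, a replicate block, variance trend with robust estimation, and leaving out each tumour. Figures were drawn with matplotlib 3.10.9.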

Additional observations from a re-analysis of the deposited data

How the results depend on the processing

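None of the heart-restricted genes passed under any of 14 alternatives (limma). The Nppa value turned to 0.31 with the mean of its probes, and that of Hand2 to 0.026 with normexp correction and to between -0.23 and 0.17 when a tumour was left out (0.17 without miR-124a 2); the causes were not tested. Mybpc3, Nkx2-5 and Irx4 kept their sign in all alternatives run, at -2.75 to -0.85, -1.37 to -0.18 and 0.03 to 0.38. Of all genes 742 passed, 84.9% of them lower, and 1547 with normexp correction (62.5% lower), 1723 with trend and robust estimation, 96 without a filter on dim probes, which adds genes to the adjustment, and 0 to 375 when a tumour was left out, with fewer samples. Of 129 other listed genes tested 46 passed, against 4 without the filter and 0 to 44 without a tumour. For shared striated muscle genes 25 became 2 without the filter and 0 to 27 without a tumour, and for skeletal muscle genes 12 became 1 and 0 to 11. With a replicate block 0 genes passed in limma (4954 at an unadjusted p under 0.05), although the numbers gave no sign of pairing. The counts in that fit were thus 0 of 129 listed, 0 of 38 shared (35 unadjusted) and 0 of 13 skeletal genes (13 unadjusted). Signal near background limits Nppb, Pln, Hand1 and Nkx2-5, where normexp correction draws values together. Hand2 and Irx4, though well above background on all 6 arrays, were also dim, at 3.46% to 5.97% and 3.26% to 4.78%. With normexp correction Irx4 moved from 0.20 to 0.03 and the dimmer Nppa probe from 0.72 to 0.17. The replicate spread of Mybpc3 limits its test.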
